A study of Homo sapiens with 6 samples.

Results

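The 10 mRNAs described here encode the eIF4 group of translation initiation factors and the cytoplasmic poly(A)-binding proteins: EIF4E, EIF4EBP1, EIF4G1, EIF4G2, EIF4A1, EIF4A2, EIF4B, EIF4H, PABPC1 and PABPC4. They were chosen by Ensembl gene ID, all 10 were found among the 60554 IDs of the count files, and all 10 were among the 10788 genes that passed the filter on low counts. RNA was immunoprecipitated with anti-LARP1 (LARP1 IP, n = 2 libraries) from the 40S part of a sucrose gradient. The series design calls this part free 40S, that is, small ribosomal subunits outside assembled ribosomes, while the sample descriptions call it a monosome fraction, and the labels do not settle which ribosomal particles it held. Background was measured with normal rabbit serum IgG (IgG IP, n = 2), and the unselected RNA of the fraction was sequenced as Input (n = 2). All 6 libraries came from HCT116, a human colorectal carcinoma line, with no treatment or genotype difference named, and were made with a stranded kit without poly(A) selection. The labels call the replicates biological but do not say whether they were separate cultures, and p-values here reflect only how these libraries vary.

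Cap-dependent initiation starts when eIF4E binds the 5′ cap, eIF4G holds the complex together, and the helicase eIF4A, helped by eIF4B or eIF4H, unwinds the leader. The poly(A)-binding proteins coat the mRNA tail and touch eIF4G. 4E-BP1, the product of EIF4EBP1, competes with eIF4G for eIF4E and is released when mTORC1 phosphorylates it. LARP1 is an RNA-binding protein downstream of mTORC1 that binds the cap and the adjoining pyrimidines of terminal oligopyrimidine (TOP) mRNAs, which begin with a C and a run of C and T, and it also binds poly(A)-binding protein. PABPC1 is a long-known TOP mRNA.

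The transcript starts are shown because the TOP sequence lies there. RefSeq (GRCh38.p14) starts were examined for 7 of the 10 genes. Those of EIF4EBP1, PABPC1 and PABPC4 were not examined, although RefSeq gives a locus for each. Whether these genes begin with a TOP sequence was therefore not tested. Each line gives the 15 bases before the annotated start and the first 15 transcribed bases, on the transcribed strand, with a C followed by at least 4 bases that are C or T in capitals.
EIF4B, chr12:53006441-53006470, plus strand: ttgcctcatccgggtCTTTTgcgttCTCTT
EIF4A2, chr3:186783562-186783591, plus strand: gttgggcgccgctgtCTTTTCagtcgggcg
EIF4H, chr7:74174341-74174370, plus strand: CCTTCCTCgctcaccctggttCCTCTCgga
EIF4A1, chr17:7572810-7572839, plus strand: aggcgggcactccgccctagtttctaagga
EIF4E, chr4:98929119-98929148, minus strand: CCTTCTggagcggttgtgcgatcagatcga

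EIF4B and EIF4A2 have such a run at the first transcribed base, which 4.07% of the 35116 starts in the RefSeq table have. In EIF4B, 13 of the first 15 transcribed bases are C or T, a number that 2.23% of all starts reach. EIF4A1 and EIF4H also begin with C, as 14.7% of starts do, but without the run there. The start of EIF4E begins with G, and its run lies before the start. EIF4G1 has 3 annotated starts and EIF4G2 has 2, and none of these 5 begins with C. However, 1 of the EIF4G2 starts begins with A and has a run of 7 bases at transcribed bases 2 to 8. Of its first 15 transcribed bases, 11 are C or T. Anywhere in the 30 bases, 7 of the 10 starts have a run on the transcribed strand, against 39.0% of all starts. On the opposite strand 2 of the 10 starts have one, against 36.9%. These matches describe the annotation, and the start used in HCT116 was not measured.

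Levels below are TMM-normalised CPM, that is, counts scaled to each library's size and composition. Since they are not divided by transcript length, a level is compared between libraries and not between genes. Fold changes are relative to most other genes of the libraries compared, since no external standard was used. Library totals ran from 4135463 to 8069554 counts. The 2 most abundant IDs took 21.3% to 26.6% of LARP1 IP counts, 70.9% and 71.5% of IgG IP counts and 87.9% and 88.6% of Input counts, so Input was left with at most 778680 counts for all other genes. The gene IDs could not be paired with symbols beyond the 10 members, so markers of the cell line and the rest of the pathway were not analysed here.

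In the LARP1 IP, EIF4EBP1 was called higher than in both the IgG IP and Input, and EIF4B higher than in Input. EIF4G2 was called lower than in the IgG IP, where replicate 1 stood apart (979 and 167 CPM). Without that library the EIF4G2 log2 fold change was -0.34, and its LARP1 IP level lay close to Input. The other 7 members passed the test in neither comparison. Against the IgG IP, 1 of 10 members was called higher and 1 lower by edgeR's quasi-likelihood test at an adjusted p of 0.05, while 8.54% of all tested genes were called higher and 2.29% lower. Against Input, 2 of 10 were called higher and 0 lower, with 4.63% of all genes higher and 1.52% lower. Over both directions, 2 of 10 passed against the IgG IP (10.8% of all genes) and 2 of 10 against Input (6.15%). At an unadjusted p under 0.05, 5 of 10 members passed against the IgG IP (25.1% of all genes) and 4 of 10 against Input (21%), and DESeq2 called 0 members lower than Input as well. Both LARP1 IP libraries were above both Input libraries for 5 members (28.8% of all genes) and below both for 2 (22.8%), and against the IgG IP 3 members lay above (27.3%) and 3 below (25.9%). The median log2 fold change of the 10 was 0.11 against the IgG IP and 0.37 against Input, and that of all tested genes was -0.06 and 0.03. Counts of 1 or 2 among 10 members are not read as a difference from all genes.

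**Figure D1:**
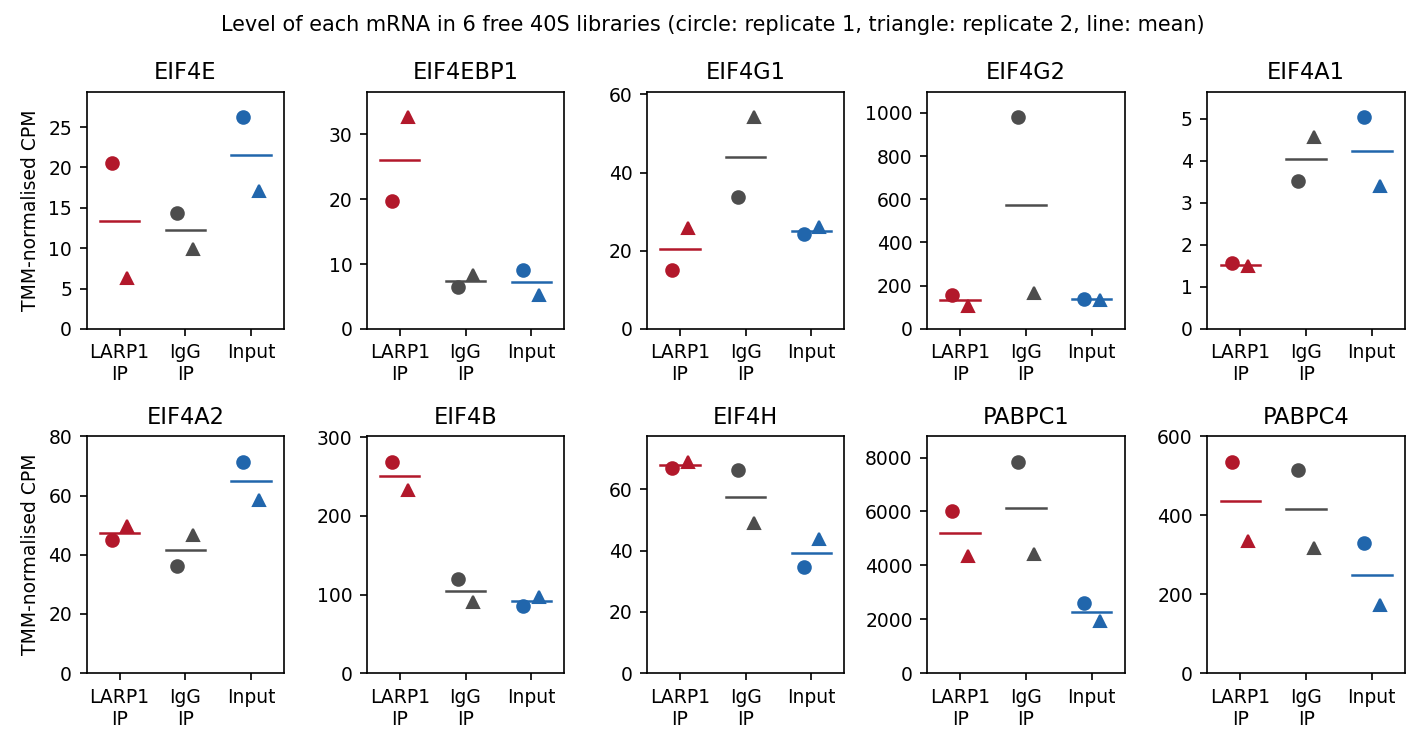
Level of each of the 10 mRNAs in TMM-normalised CPM (linear axes from 0, one scale per gene), with 1 point per library and a line at the mean of 2 libraries in the LARP1 IP, the IgG IP and Input. EIF4EBP1 and EIF4B have both LARP1 IP points above all 4 control points, and 1 IgG IP library stands apart for EIF4G2.

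The cap-binding step is represented by EIF4E and its inhibitor EIF4EBP1. EIF4EBP1 (ENSG00000187840.4, chromosome 8) stood at 19.7 and 32.6 CPM in the LARP1 IP, 6.47 and 8.33 CPM in the IgG IP, and 9.06 and 5.28 CPM in Input. Both LARP1 IP libraries were higher than all 4 control libraries, a pattern shown by 20.6% of all tested genes and by 3 of the 10 members (EIF4EBP1, EIF4B and EIF4H). Its log2 fold change was 1.81 ± 0.44 (SE) over the IgG IP (edgeR adjusted p = 0.0185), a fold of 3.52. Over Input it was 1.86 ± 0.47 (SE), a fold of 3.64 (edgeR adjusted p = 0.0311). EIF4EBP1 was the member called above both controls, as were 4.37% of all tested genes. In the IgG IP against Input its log2 fold change was 0.05 (95% interval -0.96 to 1.06). In 7.56% of tested genes the fold over IgG was larger, and in 5.82% the fold over Input was larger, so many genes had larger folds.

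Input held only 27 and 17 counts of EIF4EBP1. The call over IgG was lost without LARP1 IP replicate 2 (log2 fold change 1.42, edgeR adjusted p = 0.0941) or without IgG IP replicate 1 (1.64, edgeR adjusted p = 0.0967). Over Input it was lost without LARP1 IP replicate 2 (1.48, edgeR adjusted p = 0.158) or either Input library (2.31 and 1.53, edgeR adjusted p = 0.133 and 0.395). In these last fits, with 1 Input library left, edgeR called none of the tested genes, so with edgeR the loss was not particular to EIF4EBP1. DESeq2 still called other genes in both of these fits. It kept the EIF4EBP1 call over Input without Input replicate 1 (2.28). The DESeq2 call was lost without Input replicate 2 (1.46) or without LARP1 IP replicate 2 (1.48). With total counts outside the 2 most abundant genes as the scale, both calls were lost (log2 fold changes 0.57 and 0.83). The direction held, with medians of all genes at -1.28 against the IgG IP and -0.98 against Input.

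EIF4E, the cap-binding protein itself, was not called. Its mRNA (ENSG00000151247.12, chr4:98879276-98929133) stood at 20.5 and 6.32 CPM in the LARP1 IP, 14.4 and 9.92 CPM in the IgG IP, and 26.2 and 17.1 CPM in Input. The LARP1 IP libraries spanned both IgG IP values and overlapped Input. The log2 fold change was 0.16 over the IgG IP (95% interval -0.95 to 1.26, edgeR adjusted p = 0.891) and -0.67 over Input (95% interval -1.79 to 0.46, edgeR adjusted p = 0.507). The second LARP1 IP library held only 34 counts of EIF4E.

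The scaffolds are EIF4G1, which joins eIF4E to eIF4A, and EIF4G2 (also called DAP5), a relative that lacks the eIF4E-binding region. EIF4G2 (ENSG00000110321.15, chr11:10797046-10808926) stood at 158 and 105 CPM in the LARP1 IP, 979 and 167 CPM in the IgG IP, and 140 and 135 CPM in Input. The LARP1 IP lay close to Input, and IgG IP replicate 1 stood apart, with 10594 counts of EIF4G2 against 1685 in IgG IP replicate 2. The log2 fold change was -2.12 ± 0.63 (SE) against the IgG IP (edgeR adjusted p = 0.0457) and -0.06 ± 0.61 against Input (edgeR adjusted p = 0.973). Without IgG IP replicate 1 the first of these was -0.34 (edgeR adjusted p = 0.837). The EIF4G2 call was lost too without LARP1 IP replicate 2 (-1.86, edgeR adjusted p = 0.142), without either Input library (-2.09 and -2.13, edgeR adjusted p = 0.143 and 0.116), with total counts (-1.95, edgeR adjusted p = 0.104) and when the Input libraries were left out of the fit (-2.11, edgeR adjusted p = 0.135).

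EIF4G1 (ENSG00000114867.19, chr3:184314606-184335358) stood at 15.1 and 25.7 CPM in the LARP1 IP, 33.7 and 54.1 CPM in the IgG IP, and 24.2 and 26.1 CPM in Input. Both LARP1 IP libraries were below both IgG IP libraries, which holds for 25.9% of all tested genes, and they overlapped Input. Its log2 fold change was -1.11 ± 0.43 (SE) against the IgG IP (edgeR adjusted p = 0.119) and -0.31 ± 0.43 against Input (edgeR adjusted p = 0.739).

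The helicases EIF4A1 and EIF4A2 are close paralogs, and eIF4A1 is the usual eIF4F subunit. EIF4A2 (ENSG00000156976.14, chr3:186783577-186789897) stood at 45 and 49.9 CPM in the LARP1 IP, 36.3 and 46.6 CPM in the IgG IP, and 71.5 and 58.7 CPM in Input. The LARP1 IP overlapped the IgG IP and lay below Input. Although its annotated start has a pyrimidine run at the first base, its log2 fold change was 0.19 over the IgG IP (95% interval -0.62 to 1.01, edgeR adjusted p = 0.8) and -0.46 over Input (95% interval -1.28 to 0.37, edgeR adjusted p = 0.542). Scaling by total counts shifted the median of all genes over Input to 1.75, and with it the EIF4A2 value over Input turned to 1.26 (edgeR adjusted p = 0.0136). Total counts outside the 2 most abundant genes shifted that median to -0.98 and gave the opposite call, at -1.43 (edgeR adjusted p = 0.0412).

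EIF4A1 (ENSG00000161960.14) had very few counts: 15 and 8 in the LARP1 IP, 38 and 46 after IgG, and 15 and 11 in Input. The exact Poisson 95% interval of the smallest, which covers counting error only, ran from 3.45 to 15.8 counts. These are 1.57 and 1.49 CPM in the LARP1 IP, 3.51 and 4.56 CPM in the IgG IP, and 5.03 and 3.41 CPM in Input. EIF4A1 was the 1 member of 10 with both LARP1 IP libraries below all 4 controls, as were 14.6% of tested genes. EIF4A1 had a log2 fold change of -1.38 ± 0.52 (SE) against the IgG IP and -1.44 ± 0.56 against Input, with neither past the threshold (edgeR adjusted p = 0.111 and 0.154). Scaled by total counts, the value against Input turned to 0.29 and was not called. Scaled by total counts outside the 2 most abundant genes, EIF4A1 was called lower than both controls, at -2.53 against the IgG IP (edgeR adjusted p = 0.00973) and -2.38 against Input (edgeR adjusted p = 0.0265), with medians of all genes at -1.28 and -0.98. The whole span of EIF4A1 (chr17:7572825-7579006, GRCh38.p14) lies inside the annotated read-through gene SENP3-EIF4A1 (chr17:7561992-7579006), and RefSeq names 13 pseudogenes after it. How reads that fall in 2 genes or map to several places were counted is not given in the sources used here, so the EIF4A1 counts are uncertain, and the part such reads play in them was not tested.

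EIF4B and EIF4H stimulate the helicase. EIF4B (ENSG00000063046.17, chr12:53006456-53042215) stood at 269 and 233 CPM in the LARP1 IP, 120 and 90 CPM in the IgG IP, and 85.9 and 96.5 CPM in Input. The lower LARP1 IP library was above the highest control, and the controls overlapped each other. Over Input its log2 fold change was 1.46 ± 0.39 (SE; fold 2.75, edgeR adjusted p = 0.0413). Over the IgG IP it was 1.26 ± 0.39 (SE), a fold of 2.39 that just missed the threshold (edgeR adjusted p = 0.053). DESeq2 with all 6 libraries called both (log2 fold change over the IgG IP 1.24, adjusted p = 0.0149). Of all tested genes, 12.9% had a larger fold over IgG and 8.92% a larger fold over Input. The DESeq2 call over the IgG IP was lost without LARP1 IP replicate 1 (1.13) or IgG IP replicate 2 (1.04). Over Input the DESeq2 call was lost without LARP1 IP replicate 1 (1.32) or either Input library (1.36 and 1.49). Scaled by total counts outside the 2 most abundant genes, EIF4B stood at 0.08 over the IgG IP (edgeR adjusted p = 0.88). All genes then had a median of -1.28. Scaled by total counts, EIF4B was called over the IgG IP (1.46, edgeR adjusted p = 0.033), with all genes at a median of 0.15.

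The EIF4B call over Input was lost with upper-quartile factors (1.33, edgeR adjusted p = 0.0618) and a minimum count of 50 (1.29, edgeR adjusted p = 0.0568). It was lost too with total counts outside the 2 most abundant genes (0.51, edgeR adjusted p = 0.36, with all genes at a median of -0.98). It was also lost without either LARP1 IP library (1.36 and 1.57, edgeR adjusted p = 0.0733 and 0.0854) or either Input library (1.41 and 1.56, edgeR adjusted p = 0.235 and 0.329). In the fits with 1 Input library edgeR called none of the tested genes. In each of these fits the direction held.

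EIF4H, a smaller protein with a role like that of eIF4B (ENSG00000106682.14, chr7:74174356-74197096), stood at 66.9 and 69 CPM in the LARP1 IP, 66.3 and 48.9 CPM in the IgG IP, and 34.6 and 43.8 CPM in Input. The LARP1 IP was barely above the higher IgG IP library. Its log2 fold change was 0.24 over the IgG IP (95% interval -0.58 to 1.06, edgeR adjusted p = 0.75) and 0.79 over Input (95% interval -0.04 to 1.63, edgeR adjusted p = 0.264).

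**Figure D2:**
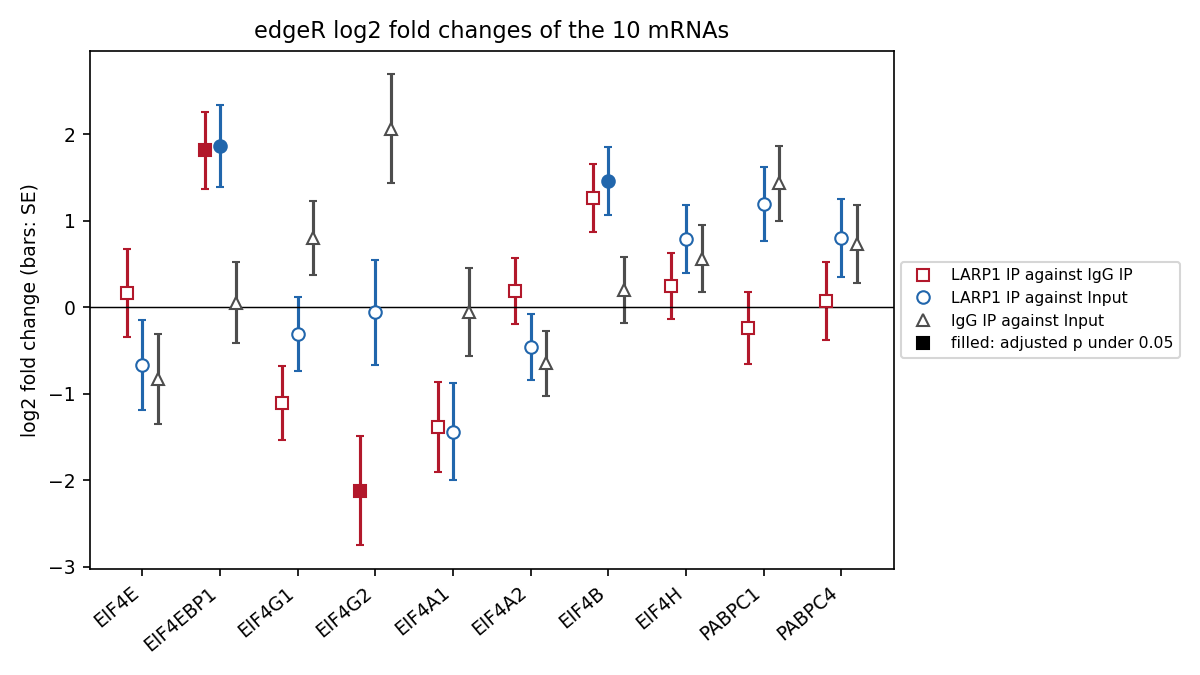
edgeR log2 fold changes of the 10 mRNAs: LARP1 IP against IgG IP (squares), LARP1 IP against Input (circles) and the IgG IP against Input (triangles), with bars of 1 SE and filled symbols at an adjusted p under 0.05. EIF4EBP1 is filled in both LARP1 comparisons at 1.81 and 1.86, while PABPC1 stands at -0.24 against the IgG IP and 1.19 against Input.

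The poly(A)-binding proteins took most of the counts of the group. PABPC1 held 77.6% to 85.5% of the summed counts of the 10 members in the 6 libraries, a share of reads that is not a molar share. Its mRNA (ENSG00000070756.13, chromosome 8) stood at 6030 and 4360 CPM in the LARP1 IP, 7850 and 4420 CPM in the IgG IP, and 2610 and 1930 CPM in Input. Both kinds of immunoprecipitate were above Input, and they overlapped each other. PABPC1 had a log2 fold change of 1.19 ± 0.43 (SE) over Input (fold 2.29, edgeR adjusted p = 0.128) and -0.24 ± 0.42 over the IgG IP (95% interval -1.15 to 0.67, edgeR adjusted p = 0.776). In the IgG IP over Input it was 1.43 ± 0.43 (SE; edgeR adjusted p = 0.639), which 2.74% of tested genes exceeded. With no low-count filter the LARP1 IP passed over Input for PABPC1 (1.36, edgeR adjusted p = 0.0054), and so did the IgG IP (1.59, edgeR adjusted p = 0.00602). Under total counts PABPC1 was called higher than Input (2.96, edgeR adjusted p = 0.000317, with all genes at a median of 1.75), and under total counts outside the 2 most abundant genes it was called lower than IgG (-1.41, edgeR adjusted p = 0.0211, with all genes at -1.28). RefSeq names 13 pseudogenes after PABPC1, and reads shared with them could not be separated.

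PABPC4, a relative of PABPC1 (ENSG00000090621.13, chr1:39560816-39576790), stood at 536 and 334 CPM in the LARP1 IP, 514 and 318 CPM in the IgG IP, and 329 and 172 CPM in Input. The LARP1 IP and IgG IP libraries overlapped, and the lower LARP1 IP library was just above the higher Input library. The log2 fold change was 0.07 over the IgG IP (95% interval -0.9 to 1.03, edgeR adjusted p = 0.947) and 0.8 over Input (95% interval -0.18 to 1.77, edgeR adjusted p = 0.34). An annotated antisense gene, PABPC4-AS1, covers 50.9% of its span, and the strand setting of the counting is not given in the sources used here.

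**Figure D3:**
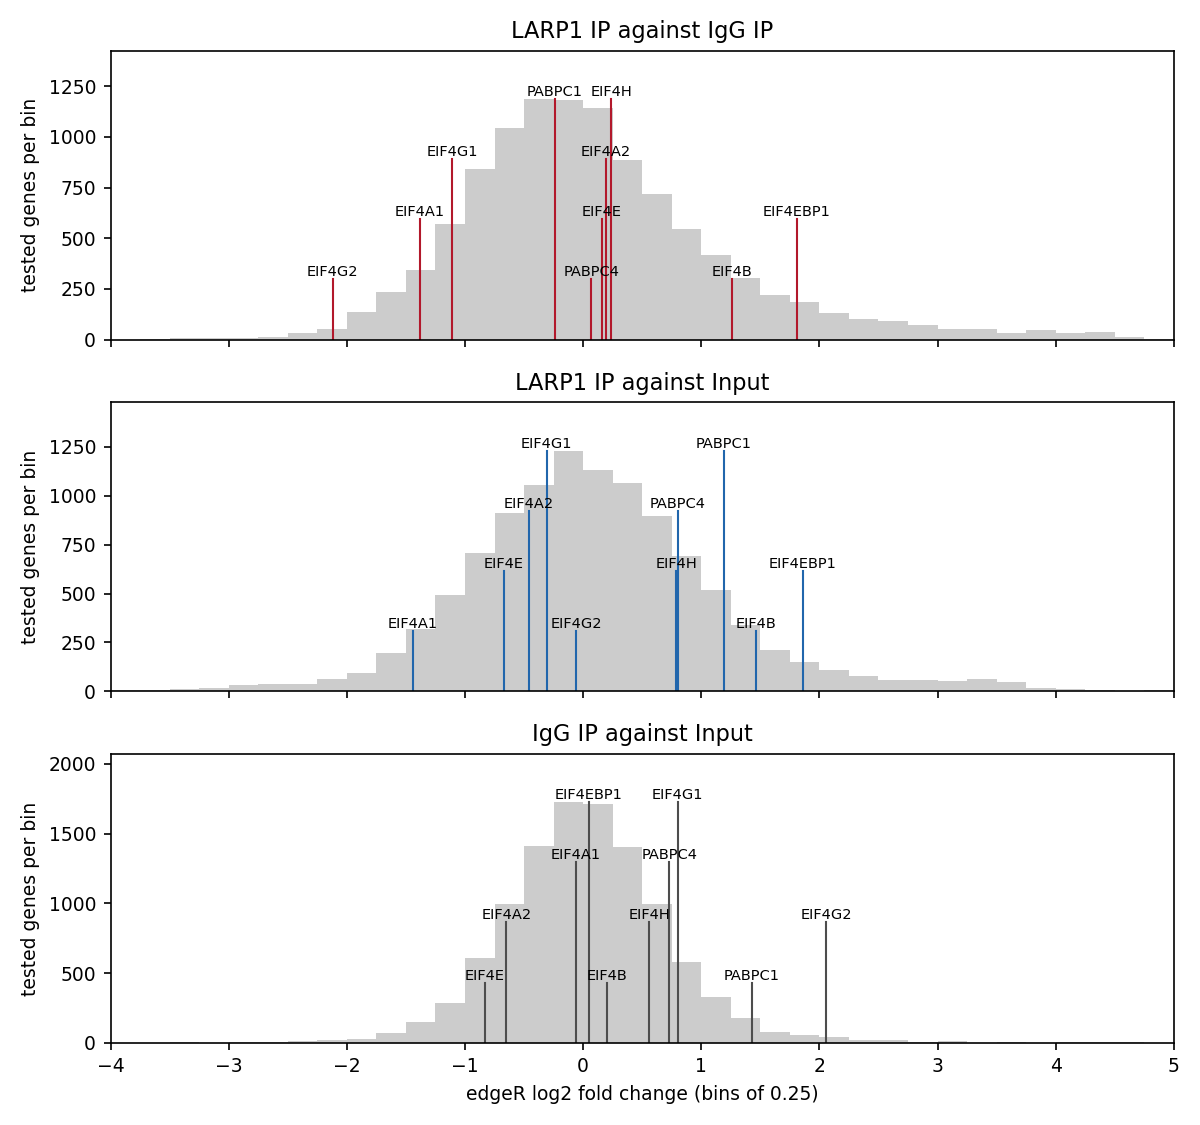
Grey bars count the 10788 tested genes by edgeR log2 fold change in bins of 0.25 (x axis) for each comparison, and lines mark the 10 members (line height only separates the names). EIF4EBP1 and EIF4B lie on the right shoulder in both LARP1 comparisons, and EIF4G2 at 2.06 and PABPC1 at 1.43 lie on the right in the IgG IP against Input.

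What normal serum brings down was read from the IgG IP against Input. By edgeR, 0 of the 10 members and 0% of all tested genes passed, with 2 members (EIF4G2 and PABPC1) and 6.72% of all genes at an unadjusted p under 0.05. Both IgG IP libraries were above both Input libraries for 4 members (19.2% of all genes) and below both for 2 (19.3%). The log2 fold change of EIF4G2 was 2.06 ± 0.63 (SE; edgeR adjusted p = 0.639), a value that 0.992% of genes exceeded. DESeq2 called 20 of the 10788 genes higher and 17 lower, and gave 3 members no adjusted p. The 1 member it called was EIF4G2 (2.03, adjusted p = 0.0401). Without IgG IP replicate 1 its edgeR value was 0.28, and without IgG IP replicate 2 edgeR called it (2.81, adjusted p = 0.0017). With no low-count filter edgeR called both EIF4G2 and PABPC1 higher, as it did 56 of 24232 genes. Over 21 alternatives the PABPC1 value ran from 0.91 to 2.99. In the main fit the median of the 10 was 0.38, against 0.01 for all tested genes. Scaling by total counts shifted all genes to a median of 1.51, and 8 members were then called higher, as were 5808 of the 10788 genes.

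A ratio of 2 mRNAs within the same library does not depend on how libraries are scaled. Each of 5 ratios was compared between groups by an exact two-sided permutation test over libraries, whose smallest possible p for 2 against 2 is 0.33, so none could pass 0.05. The log2 ratio of EIF4B over EIF4H counts was 2 and 1.76 in the LARP1 IP, 0.86 and 0.88 after IgG, and 1.31 and 1.14 in Input. It was thus higher in the LARP1 IP by 1.01 than in the IgG IP and by 0.65 than in Input (exact p = 0.33 each). The log2 ratio of EIF4E over EIF4EBP1 was 0.05 and -2.36 in the LARP1 IP, 1.16 and 0.25 after IgG, and 1.53 and 1.69 in Input, with no overlap (differences of -1.86 and -2.77, exact p = 0.33 each). The LARP1 IP replicates differed from each other by more than the difference from IgG. Leaving out 1 LARP1 IP library in turn moved the differences to -3.07 (without replicate 1) and -0.65 (without replicate 2) against IgG, and to -3.98 and -1.56 against Input.

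The log2 ratio of EIF4A1 over EIF4A2 was -4.84 and -5.07 in the LARP1 IP, -3.37 and -3.35 after IgG, and -3.83 and -4.1 in Input. The LARP1 IP was lowest in both comparisons (differences of -1.59 and -0.99, exact p = 0.33 each), on the few EIF4A1 counts given above. The log2 ratio of PABPC1 over PABPC4 was 3.49 and 3.71 in the LARP1 IP, 3.93 and 3.8 after IgG, and 2.99 and 3.49 in Input. Here the LARP1 IP differed from the IgG IP by -0.27 and from Input by 0.36 (exact p = 0.33 each), with its lower library level with the higher Input library. For EIF4G1 over EIF4G2 the libraries overlapped in both comparisons (differences of 0.53 and -0.26, exact p = 1 each). In that ratio the IgG IP replicates stood at -4.86 and -1.63.

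**Figure D4:**
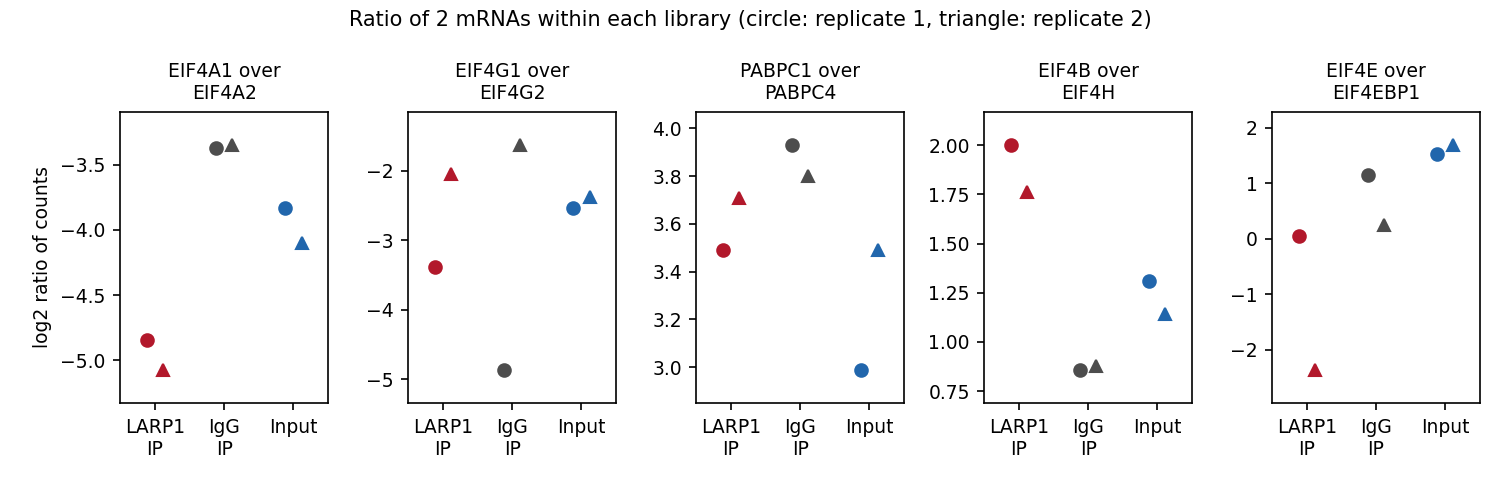
log2 ratio of the counts of 2 mRNAs within each library, for 5 pairs, in the LARP1 IP, the IgG IP and Input (1 point per library, one scale per pair). EIF4B over EIF4H is highest in the LARP1 IP at 2 and 1.76, and EIF4G1 over EIF4G2 differs most between the IgG IP replicates.

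The summed counts of the 10 members were 1.79% and 0.861% of what the LARP1 IP held beyond the 2 most abundant genes. They were 4.86% and 2.26% after IgG, and 1.32% and 1.03% in Input. On this denominator both IgG IP libraries were above all others, and the LARP1 IP overlapped Input. As a share of all counts the order was different: 1.31% and 0.678% in the LARP1 IP, 1.42% and 0.645% after IgG, and at most 0.15% in Input, so that the LARP1 IP overlapped the IgG IP and both lay above Input. Scaled by all counts, the medians of all tested genes over Input were 1.75 for the LARP1 IP and 1.51 for the IgG IP. Neither order is read as particular to the members. The sum mostly follows PABPC1. Without it the 9 other members took 0.282% and 0.142% in the LARP1 IP, 0.895% and 0.328% after IgG, and 0.287% and 0.231% in Input. The IgG IP shares include the 10594 counts of EIF4G2 in replicate 1 and 1685 in replicate 2. In all 3 groups, replicate 1 held the larger share.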

How the data were processed

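The members and pairs were chosen with earlier results of these data known. The authors deposited raw read counts per gene, 1 file per library, not normalised or pooled. The build GRCh38 and, in no stated order, Subread 1.20.6, featureCounts, TopHat2 2.1.1, Bowtie2 and CASAVA 1.8 are named per the submitters' processing notes. Annotation release, strand setting and handling of shared reads: not given in the sources used here. The files hold no gene symbols. The RefSeq gene table used here gives no Ensembl IDs, so only members are named and the planned lists were not applied.

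The tests used edgeR 4.0.16 (R 4.3.3): filterByExpr (minimum count 10), TMM, and 1 quasi-likelihood fit of all 6 libraries by group, with Benjamini-Hochberg adjustment over 10788 genes and a threshold of 0.05. SE is the log2 fold change divided by the square root of F, and 95% intervals use the fit's degrees of freedom. DESeq2 1.42.0, other scalings, filters, fits of 4 libraries, a replicate block and leaving out each library were alternatives. No replicate pair was a duplicate: the chi-square per degree of freedom between replicates, near 1 for sampling noise, was 4.73 in Input and 29.7 in the IgG IP. All 10 members are named by rule.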

Additional observations from a re-analysis of the deposited data

How the results depend on the processing

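Few counts limit EIF4A1 (8 in LARP1 IP replicate 2), EIF4EBP1 (17 in Input replicate 2) and EIF4E (34 in LARP1 IP replicate 2). Counts of members called are given as higher (main value 1) and lower (1) against the IgG IP, higher (2) and lower (0) against Input, and higher (0) for the IgG IP against Input, listing changes of over 1.5 times. DESeq2 called 2 higher against IgG (with 891 of 10788 genes) and 1 for the IgG IP (with 20 genes). Total counts gave 2 and 0 against IgG (with 1004 and 75 of 10788 genes). They gave 8 higher against Input (with 6550 genes) and 8 for the IgG IP (with 5808 genes). Total counts without the 2 most abundant genes, which moved the median of all genes against IgG to -1.28, gave 0 and 4 against IgG (with 4185 of 10962 genes lower), and 0 and 2 against Input (with 1270 lower). Upper-quartile factors and a minimum count of 50 each left 1 higher than Input (with 419 of 10788 and 416 of 5850 genes). No filter gave 2 for the IgG IP (with 56 of 24232 genes), and 4 libraries left 0 lower than IgG (with 80 of 10654 genes). Leaving out each library gave, with edgeR, for IgG 0 to 1 higher and 0 to 1 lower, 0 to 2 higher against Input and 0 to 1 for the IgG IP. With DESeq2 it gave 1 to 2 and 0 to 1 against IgG, 0 to 2 against Input and 0 to 2 for the IgG IP. TMM without the 2 most abundant genes moved none of these. Apart from construction (fewer libraries, another scale or filter), the cause was not tested.

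In the fit with a replicate block (the replicate number as a term), 2 members were higher than IgG (EIF4B and EIF4EBP1) and 3 lower (EIF4A1, EIF4G1 and EIF4G2), with 1526 and 909 of 10788 genes, in place of 921 and 247 without it. The block thus gained calls for EIF4G1 (-1.11, edgeR adjusted p = 0.0187), EIF4A1 (-1.38, edgeR adjusted p = 0.0378) and EIF4B (1.26, edgeR adjusted p = 0.012). Deviations of same-numbered libraries correlated at 0.519 (LARP1 IP and IgG IP), 0.134 (LARP1 IP and Input) and 0.271 (IgG IP and Input), but the labels name no shared batch.

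Total counts reversed EIF4A2 (1.26), EIF4G1 (1.35) and EIF4G2 (1.7) against Input, and EIF4A1 (1.44) in the IgG IP against Input, a restatement of the shift of all genes. Of 609 recomputed member fold changes, 33 gained a call, 30 lost one, 4 were the reversals just given, and 37 changed sign with no call in either fit. The EIF4G1 over EIF4G2 difference ranged from -1.08 to 2.15 against IgG and from -0.93 to 0.41 against Input as each library was left out. With all counts as the denominator the members took 0.994% of the LARP1 IP, 1.03% of the IgG IP and 0.137% of Input, in place of 1.32%, 3.56% and 1.18%. In the first 20 transcribed bases, 5 of the 7 genes had a pyrimidine run at any annotated start, in place of 6. Of all starts, 26.8% had a run there, a share of starts and not of genes.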

Other observations

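Over the 6 libraries, which fall into 3 groups, the levels of PABPC1 and PABPC4 moved most alike among the members (correlation of log2 CPM 0.9), followed by EIF4B and EIF4EBP1 (0.85) and EIF4H and EIF4B (0.8). These correlations share the libraries' composition and differences between groups, and are descriptions only.

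The EIF4A1 and EIF4A2 loci host small nucleolar RNAs in the RefSeq annotation, 3 in EIF4A1 and 5 in EIF4A2. EIF4G1, EIF4G2 and PABPC4 each host 1. EIF4B and EIF4EBP1, the members called higher than Input, overlap no other annotated gene, but RefSeq names 9 pseudogenes after EIF4B and 2 after EIF4EBP1, and reads shared with them could not be separated.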
